A study of Arabidopsis thaliana with 29 samples.

Results

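The genes described here encode 3 kinds of proteins that act on the plant cell wall: expansins, xyloglucan endotransglucosylase/hydrolases (XTH) and TRICHOME BIREFRINGENCE-LIKE (TBL) proteins. A gene was included when the array's probe annotation gave it a symbol beginning with EXPA, EXPB, EXLA, EXLB, XTH or TBL followed by a number, on a probe set that names no other gene. This gave 49 genes of 22589 tested (probe sets with no gene or several genes named counted there as genes of their own), namely 18 expansins (10 EXPA, 4 EXPB, 3 EXLA and 1 EXLB), 9 XTH and 22 TBL genes. RefSeq lists 34 expansin, 30 XTH and 41 TBL symbols for A. thaliana (TAIR10.1), so the other members of these families are not described. All 49 had a single probe set and matched a RefSeq gene by gene ID.

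Expansins loosen the wall without breaking its polysaccharides, by easing the contacts between cellulose microfibrils and the matrix. XTH enzymes cut xyloglucan, the main hemicellulose of the primary wall, and rejoin it to other chains or hydrolyse it. Many TBL proteins act in the Golgi and place acetyl groups on wall polysaccharides, with different members working on xylan, xyloglucan and mannan. Abscisic acid (ABA) is a stress hormone that restrains seedling growth, methyl jasmonate (MeJA) a jasmonate that slows growth and turns on wound and defence responses, and 1-aminocyclopropane-1-carboxylic acid (ACC) the precursor of ethylene, a hormone that limits cell elongation.

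RNA came from whole Col-0 seedlings grown for 3 days and then kept for 5 days on medium with 10 µM ABA, 50 µM MeJA or 1 µM ACC, or with no hormone (control). The tested genotypes were PV-NES, which carries the Ca2+-binding protein parvalbumin with a nuclear export signal and so buffers cytosolic Ca2+, and PV-NLS, which carries it with a nuclear localisation signal and so buffers nuclear Ca2+. Both were set against the wild type (WT). Each PV genotype was represented by 3 independent lines, with 1 array per line and treatment, and WT by 1 array for each hormone and 2 control arrays. The promoter that drives parvalbumin and the number of seedlings pooled per array are not given in the sources used here. The ACC treatment is known here from the labels alone, whose treatment protocol lists it beside ABA and MeJA, and the study's methods do not describe it. The comparisons addressed how these wall genes respond to each hormone and whether the response differs when Ca2+ is buffered in either compartment.

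All values are log2 signals of the deposited, RMA-normalised ATH1 arrays, on which a difference of 1 equals a 2-fold difference, and a gene was called when it passed a 2-fold change with an adjusted p under 0.05 (limma, Benjamini-Hochberg over all genes). The WT hormone arrays have no replicate, and their tests take the spread of the other groups. Arrays of one group correlated at 0.982 to 0.997 over all genes. The WT ACC array stood somewhat apart, with r of 0.981 to 0.988 to the other ACC arrays, against 0.991 to 0.995 between the PV-NES and PV-NLS ACC arrays. Array medians lay between 5.25 and 5.38. Of the wall genes, 15 were above the array median on every array and 19 below it on every array, and no detection calls were used, so folds of the dim genes are uncertain in size. Of 23 listed green shoot tissue markers, 3 could be matched by symbol to a probe set naming 1 gene (LHCB4.1, LHCB4.2 and RCA). The log2 of their summed signal was 13.1 to 13.9 over all arrays, with 0 of them called in any hormone comparison. They did change by less than 2-fold, the most in RCA after MeJA in PV-NLS (-0.84) and LHCB4.2 after ACC in WT (-0.82). No listed marker of root hairs (0 of 36) or xylem (0 of 9) could be matched in this way, and of 12 seed reserve genes only PAP85 could. Unmatched markers may still be on the array, on probe sets that the annotation does not name for them alone. Since whole seedlings were assayed, fewer cells of a type and less RNA per cell cannot be told apart in any result below.

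After ABA, expansins were called in both directions, with PV-NES at 4 higher and 4 lower of the 18, PV-NLS at 3 and 4, and WT at 1 and 4, and 10, 11 and 13 not called. Called in all 3 genotypes were EXLB1, which was higher, and EXPA4, EXPA8, EXPA15, EXPB3 and TBL36, which were lower. These are 1 and 5 of the 49 wall genes, beside 1.07% and 0.753% of all genes called higher and lower in all 3 genotypes. In PV-NES, 10 wall genes were called after ABA, 4 higher and 6 lower, where 2.95% of all genes were called, 1.85% higher and 1.1% lower. PV-NLS also gave 4 higher and 6 lower, beside 3.93% of all genes (1.77% and 2.16%). In WT, 2 were higher and 8 lower, beside 4.44% of all genes (2.35% and 2.09%), and without WT control replicate 2 there were 4 higher, as EXPA7 and TBL26 then joined EXLB1 and XTH19. The median log2 change of the 49 was near 0 in each genotype (-0.02 in PV-NES, -0.06 in PV-NLS and -0.11 in WT), as was that of all genes (0.01, 0.04 and -0.01).

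**Figure D1:**
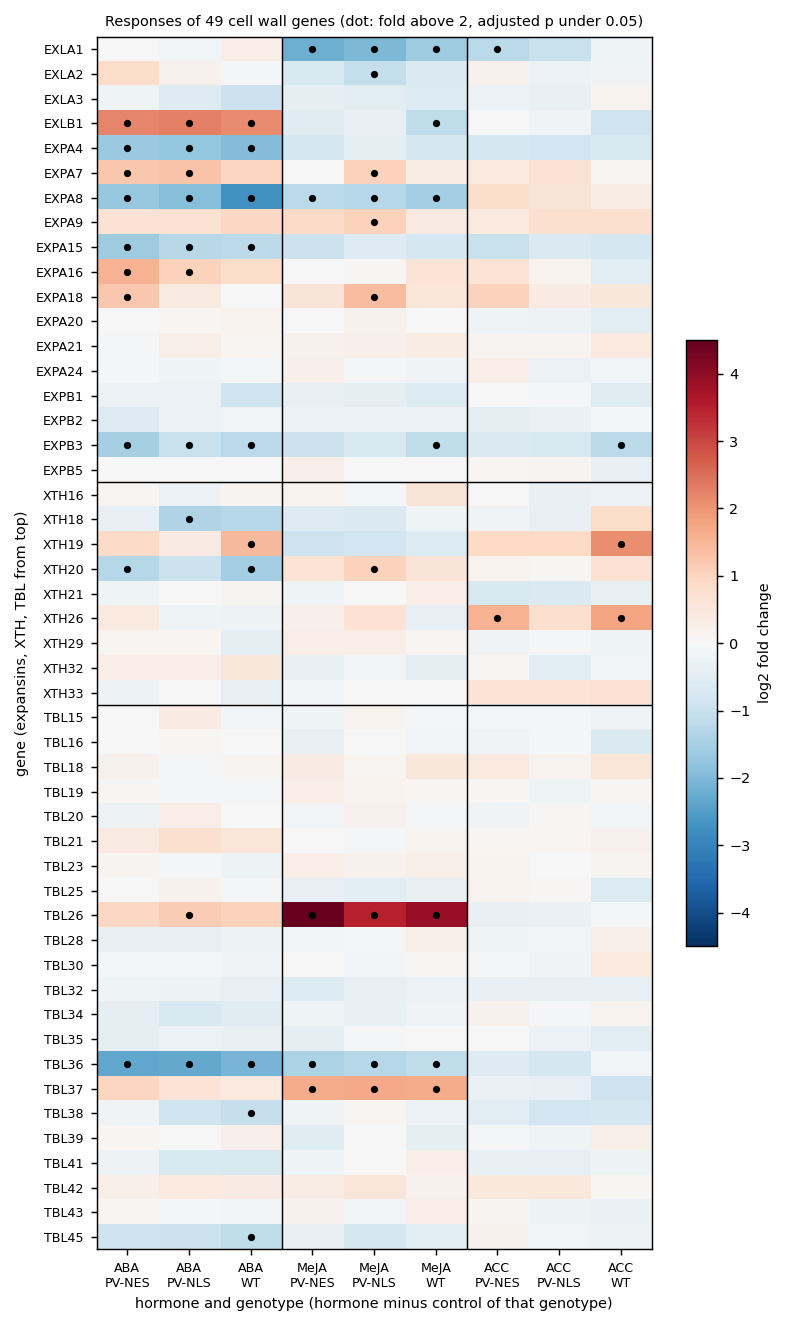
Log2 fold change of the 49 wall genes (rows, expansins above XTH above TBL genes) after ABA, MeJA and ACC in PV-NES, PV-NLS and WT (columns), each against the control of the same genotype, with red for higher and blue for lower. Dots mark called changes, which fall on 20 of the 49 genes, and TBL26 after MeJA holds the darkest red, at 4.50 in PV-NES.

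EXLB1 (AT4G17030) is the sole member of its expansin subfamily in A. thaliana, an expansin-like protein with no established wall-loosening activity. Its log2 signals were 10.08, 9.89 and 9.97 in ABA-treated PV-NES, against 7.89, 7.62 and 7.87 in control PV-NES. In PV-NLS they were 9.96, 10.04 and 10.19 after ABA, against 7.80, 7.81 and 7.82 in the control. WT gave 10.09 after ABA, against 7.80 and 8.11 in the control. The 7 ABA arrays lay close together and far above every control array. Log2 fold changes were 2.18 ± 0.16 in PV-NES (4.55-fold, adjusted p = 7.14e-10), 2.26 ± 0.16 in PV-NLS (adjusted p = 3.86e-10) and 2.14 ± 0.24 in WT (adjusted p = 2.16e-06), each ± SE from limma.

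EXPA4 (AT2G39700), an α-expansin, was lower after ABA in every genotype. It read 7.51, 7.16 and 7.36 in ABA-treated PV-NES, against 8.91, 8.99 and 9.10 in control PV-NES. PV-NLS gave 6.95, 6.87 and 7.25 after ABA, against 8.70, 8.82 and 8.76, and WT 6.78 after ABA, against 8.58 and 8.90. No ABA array reached the lowest control array, and the gene was lower in all 6 lines. Its log2 fold change was -1.65 ± 0.16 in PV-NES, -1.73 ± 0.16 in PV-NLS and -1.96 ± 0.24 in WT (limma adjusted p = 1.16e-07, 4.07e-08 and 9.05e-06).

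EXPA8 (AT2G40610), another α-expansin, fell further but with more spread between lines. ABA-treated PV-NES gave 6.66, 6.26 and 6.36, against 7.78, 8.15 and 8.45 in the control. ABA-treated PV-NLS gave 5.35, 5.93 and 6.68, against 8.24, 7.42 and 8.10, and the WT ABA array read 5.29, against 7.98 and 8.06. Treated and control arrays did not overlap in any genotype, although the PV-NLS lines spanned more than 1 log2 unit. The log2 fold change was -1.70 ± 0.30 in PV-NES, -1.93 ± 0.30 in PV-NLS and -2.73 ± 0.44 in WT (limma adjusted p = 0.000305, 4.41e-05 and 0.000244).

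The α-expansin EXPA15 (AT2G03090) had nearly the same level on every ABA array. It was 6.74, 6.83 and 6.87 in ABA-treated PV-NES, against 8.19, 8.39 and 8.64 in the control. PV-NLS had 6.67, 6.73 and 6.57 after ABA, against 7.80, 7.78 and 8.10, and WT 6.72, against 7.60 and 8.22. The ABA arrays were thus all below the controls, and the controls differed more between lines than the treated seedlings did. The log2 fold changes were -1.59 ± 0.17, -1.24 ± 0.17 and -1.19 ± 0.26 in PV-NES, PV-NLS and WT (limma adjusted p = 5.15e-07, 1.36e-05 and 0.00381). Without WT control replicate 2 the WT change was -0.88, under 2-fold.

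EXPB3 (AT4G28250), a β-expansin, was called lower as well. It read 7.03, 6.48 and 6.85 in ABA-treated PV-NES, against 8.08, 8.28 and 8.44 in the control, and 6.63, 6.76 and 6.77 in ABA-treated PV-NLS, against 7.59, 7.70 and 7.90. The WT ABA array gave 6.61, against 7.68 and 7.93. Groups were again apart in each genotype, with log2 fold changes of -1.48 ± 0.19, -1.01 ± 0.19 and -1.20 ± 0.28 (limma adjusted p = 5.41e-06, 0.000393 and 0.00695). The PV-NLS value sat at the 2-fold limit and was -0.95 without PV-NLS replicate 3.

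A few α-expansins went up. EXPA7 (AT1G12560) is known as a root hair expansin. It read 6.0, 6.04 and 6.52 in ABA-treated PV-NES, against 4.79, 5.08 and 5.05 in the control, and 5.61, 6.17 and 6.22 in ABA-treated PV-NLS, against 4.43, 4.76 and 4.92. All ABA arrays of both PV genotypes lay above the array medians and all their controls below, and the changes were 1.22 ± 0.23 and 1.3 ± 0.23 (limma adjusted p = 0.00074 and 0.00023). WT, at 5.76 after ABA against 4.49 and 5.10, gave 0.97 and was not called.

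EXPA16 (AT3G55500) was 5.83, 6.06 and 5.48 in ABA-treated PV-NES, against 4.61, 3.93 and 4.18 in the control. In PV-NLS it was 4.83, 5.38 and 5.76, against 4.36, 4.25 and 4.29. Treated and control arrays were apart in both, but line 4 (PV-NLS replicate 1) moved little. PV-NES changed by 1.55 ± 0.25 and PV-NLS by 1.03 ± 0.25 (limma adjusted p = 0.000128 and 0.00432). The PV-NLS call was lost without PV-NLS replicate 2 (0.97) or replicate 3 (0.80, adjusted p = 0.0887). WT gave 5.14 after ABA, against 4.84 and 3.79 in the control, a change of 0.82, not called. Without WT control replicate 1, which leaves the lower control array, the WT change was 1.35.

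EXPA18, a root hair expansin like EXPA7 and picked after its values were seen, was called after ABA in PV-NES alone, at 1.21 ± 0.37 (limma adjusted p = 0.0357). Its arrays were 6.30, 6.40 and 6.98 in ABA-treated PV-NES, against 5.31, 5.29 and 5.46 in the control, and 5.29, 6.04 and 6.77 in ABA-treated PV-NLS, against 5.55, 5.57 and 5.73. The PV-NLS lines thus ran from below to well above their controls. The PV-NES call was lost without PV-NES replicate 2 (adjusted p = 0.0704), PV-NES replicate 3 (0.293) or PV-NLS replicate 2 (0.0613). The gene had the widest spread within groups of the 49, with a pooled SD of 0.519, where the median of the 49 was 0.217.

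**Figure D2:**
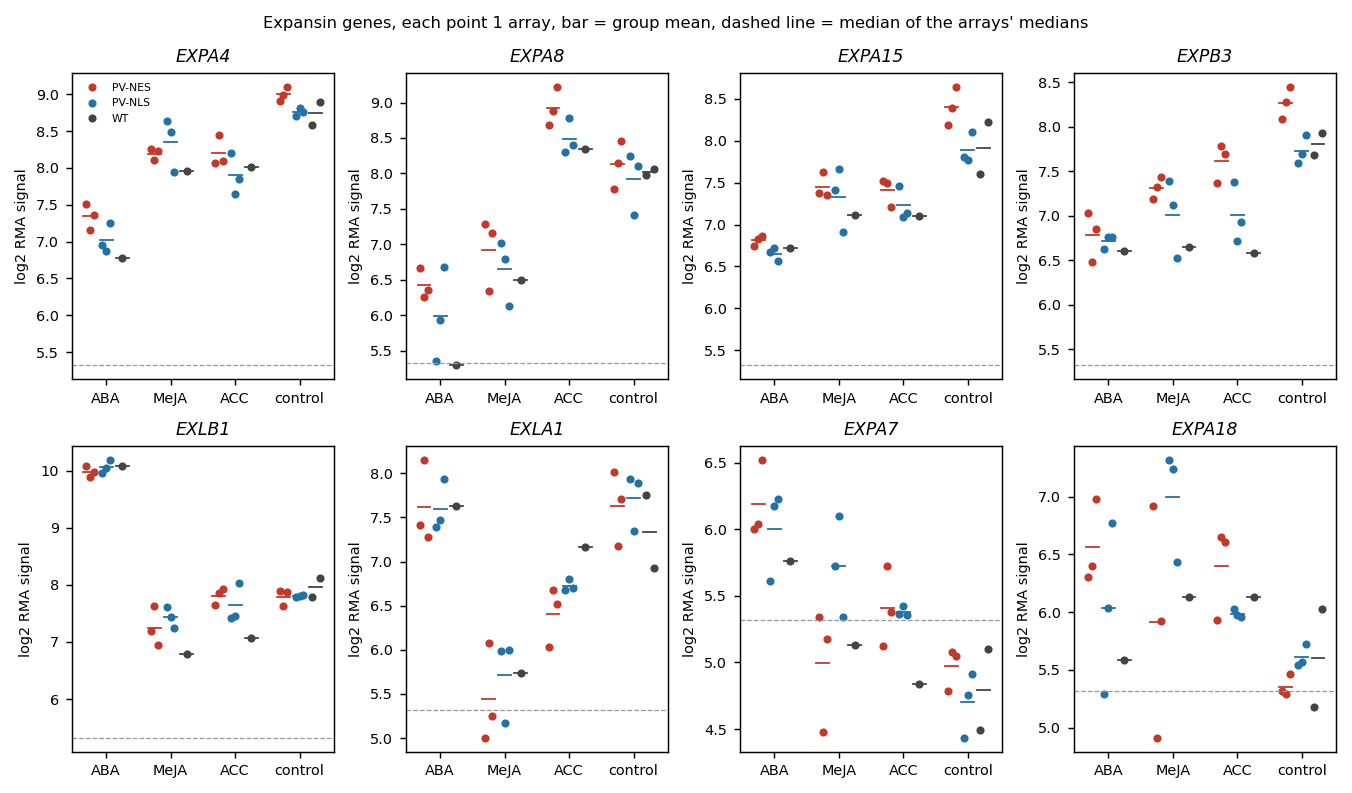
Log2 RMA signal of 8 expansin genes, 1 point per array, for ABA, MeJA, ACC and control seedlings of PV-NES (red), PV-NLS (blue) and WT (dark grey), with bars at group means and a dashed line at the median of the array medians. EXLB1 sits near 10 on the 7 ABA arrays, whereas EXPA4 (7.51 or below) and EXPA15 (6.87 or below) are lower there than on any other array. EXLA1 is at 6.07 or below on the 7 MeJA arrays, against 6.93 or above on the controls.

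Among the XTH genes, 1 was called lower after ABA in each genotype and 1 higher in WT. XTH20 (AT5G48070) read 2.86, 2.85 and 3.19 in ABA-treated PV-NES, against 4.28, 4.04 and 4.38 in the control. PV-NLS gave 3.22, 3.24 and 3.18, against 3.93, 4.34 and 4.26, and WT 2.81, against 4.27 and 4.39. All 7 ABA arrays lay below all controls, with changes of -1.27 ± 0.23 in PV-NES and -1.52 ± 0.35 in WT (limma adjusted p = 0.000535 and 0.00575). The PV-NLS change of -0.96 was just under 2-fold. These signals are below the array medians, which leaves the size of the fold uncertain.

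XTH18 and XTH19 lie next to each other in the genome and encode close relatives, and XTH18 was picked after its values were seen. XTH18 was 5.12, 4.73 and 5.19 in ABA-treated PV-NLS, against 6.75, 5.98 and 6.35 in the control. The groups were apart and the change was -1.35 ± 0.31 (limma adjusted p = 0.00298), although the call was lost without PV-NLS replicate 1 (adjusted p = 0.0589). XTH19 had the opposite sign in all 3 genotypes, at 0.88 in PV-NES, 0.38 in PV-NLS and 1.46 ± 0.40 in WT, where it was called (adjusted p = 0.0187). The WT call rests on the controls, which read 5.62 and 7.31, against 7.93 after ABA. Without WT control replicate 1 the WT change was 0.62 (adjusted p = 0.218), and without replicate 2 it was 2.31. That same control array was also the low one for XTH18, at 5.36 against 6.78 on the other WT control.

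TBL36 (AT3G54260) showed the deepest ABA decrease of the TBL genes. It read 6.46, 6.31 and 6.23 in ABA-treated PV-NES, against 8.54, 8.66 and 8.79 in the control. PV-NLS gave 6.07, 6.30 and 6.33, against 8.68, 8.12 and 8.84, and WT 6.08, against 8.13 and 8.23. Every ABA array was well below every control array. The log2 fold change was -2.33 ± 0.19 in PV-NES, -2.31 ± 0.19 in PV-NLS and -2.10 ± 0.28 in WT (limma adjusted p = 4.05e-09, 3.57e-09 and 2.45e-05).

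Another 3 TBL genes were called after ABA in 1 genotype. TBL26, one of the mannan O-acetyltransferases, was higher in PV-NLS at 1.16 ± 0.28 (limma adjusted p = 0.00386), with 6.24, 6.08 and 6.11, against 4.84, 5.33 and 4.79 in the control. Its values were 0.94 in PV-NES and 1.03 in WT, and the PV-NLS call was lost without PV-NLS replicate 1 (adjusted p = 0.0554). TBL38 and TBL45, both picked after their values were seen, were lower in WT at -1.03 ± 0.26 and -1.14 ± 0.17 (limma adjusted p = 0.0115 and 7.58e-05). TBL45 was at -0.94 in PV-NES and -0.95 in PV-NLS, short of the fold limit. TBL38 was at -0.15 in PV-NES and at -0.89 in PV-NLS. Without WT control replicate 2 its WT value was -0.75 (adjusted p = 0.0953).

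PAP85, the seed reserve gene matched by symbol, was called higher after ABA in PV-NLS (1.31). Its arrays there ranged from 2.87 to 5.48, against 2.28 to 2.63 in the control. In PV-NES it was 2.68 to 4.78 after ABA, against 2.41 to 2.65 in the control, and was not called. The 1 WT ABA array gave 2.77, against 2.44 to 2.73. The part of PAP85 in the wall gene values was not tested.

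MeJA gave the largest single change of the set. Called in all 3 genotypes were TBL26 and TBL37, which were higher, and EXLA1, EXPA8 and TBL36, which were lower, beside 1.91% and 1.06% of all genes called higher and lower in all 3. In PV-NES, 2 wall genes were called higher and 3 lower, beside 4.84% of all genes (2.42% each way). In PV-NLS it was 6 higher and 4 lower, beside 5.58% (2.92% and 2.66%), and in WT 2 higher and 5 lower, beside 5.06% (2.89% and 2.17%). The counts depended on single lines. Without PV-NES replicate 1, XTH19 and EXPA15 joined the genes called lower in PV-NES, making 5. Without PV-NLS replicate 1, 2 genes were called higher in PV-NLS, and without PV-NLS replicate 3, 2 were called lower. The median log2 change of the 49 was -0.15, -0.04 and -0.06 in PV-NES, PV-NLS and WT, where that of all genes was 0.03, 0.04 and 0.04. The summed green tissue signal was also lower after MeJA in PV-NLS (13.1 to 13.4, against 13.7 to 13.8 in the control), in WT (13.2, against 13.7 to 13.8) and, by less, in PV-NES (13.5 to 13.7, against 13.8 to 13.9). Its part in the MeJA results was not tested.

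TBL26 (AT4G01080) read 8.62, 9.39 and 9.15 in MeJA-treated PV-NES, against 4.44, 4.74 and 4.46 in the control. PV-NLS gave 8.45, 8.12 and 8.89, against 4.84, 5.33 and 4.79, and WT 8.92, against 4.52 and 5.45. The MeJA arrays all lay well above the array medians, while 7 of the 8 controls lay below them. The log2 fold change was 4.50 ± 0.28 in PV-NES (22.7-fold), 3.50 ± 0.28 in PV-NLS (11.3-fold) and 3.93 ± 0.42 in WT (15.3-fold), with limma adjusted p of 2.29e-11, 1.84e-09 and 6.07e-07. As the control signals are dim, these folds are uncertain in size.

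TBL37 (AT2G34070) rose by nearly the same amount in each genotype. It was 8.46, 8.27 and 8.50 in MeJA-treated PV-NES, against 6.69, 6.85 and 6.71 in the control. It was 8.59, 8.68 and 8.33 in PV-NLS, against 6.74, 6.95 and 6.80, and 8.64 in WT, against 7.08 and 6.84. The groups were more than 1 log2 unit apart in each genotype, with changes of 1.66 ± 0.14, 1.70 ± 0.14 and 1.68 ± 0.22 (limma adjusted p = 7.82e-09, 5.11e-09 and 1.03e-05).

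TBL36, deepest after ABA, was lower after MeJA as well. MeJA arrays gave 7.40, 6.87 and 7.43 in PV-NES. PV-NLS had 7.58, 6.92 and 7.33 and WT 7.04, so that all were below the control arrays given above. The changes were -1.43 ± 0.19, -1.27 ± 0.19 and -1.14 ± 0.28 (limma adjusted p = 4.56e-06, 1.8e-05 and 0.0092). ABA and MeJA are set against the same control arrays, so these decreases are not independent of each other.

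**Figure D3:**
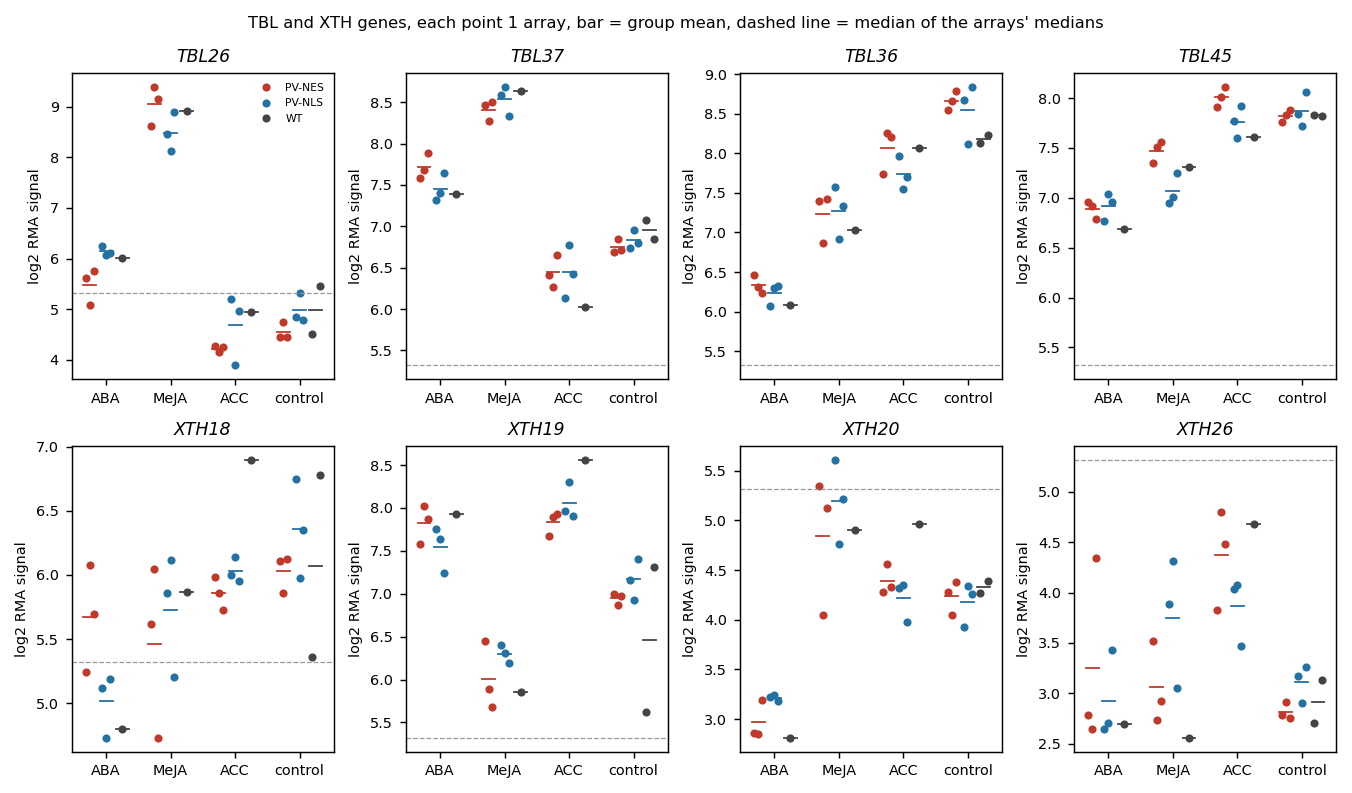
Log2 RMA signal of 4 TBL and 4 XTH genes, 1 point per array, for ABA, MeJA, ACC and control seedlings of PV-NES (red), PV-NLS (blue) and WT (dark grey), with bars at group means and a dashed line at the median of the array medians. TBL26 lies at 8.12 or above on the 7 MeJA arrays and at 5.45 or below on the controls, and for XTH18 and XTH19 the WT control arrays are far apart (5.36 and 6.78 for XTH18).

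Of the 3 expansin-like A genes, whose products resemble expansins but have no shown wall-loosening activity, MeJA lowered EXLA1 in all 3 genotypes and EXLA2 in PV-NLS. EXLA1 (AT3G45970) read 5.00, 6.07 and 5.24 in MeJA-treated PV-NES, against 8.02, 7.18 and 7.71 in the control. PV-NLS gave 5.98, 5.17 and 5.99, against 7.93, 7.34 and 7.89, and WT 5.73, against 7.75 and 6.93. All MeJA arrays were below all controls, with changes of -2.19 ± 0.30 in PV-NES, -2.01 ± 0.30 in PV-NLS and -1.61 ± 0.44 in WT (limma adjusted p = 6.58e-06, 1.75e-05 and 0.0192). The WT call was lost without WT control replicate 1 (-1.19, adjusted p = 0.166). After ABA the same gene was 7.42, 8.16 and 7.27 in PV-NES, which overlapped its controls.

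EXLA2, which was picked after its values were seen, was 4.73, 5.02 and 4.60 in MeJA-treated PV-NLS, against 6.01, 5.64 and 5.90 in the control. The change was -1.07 ± 0.15 (limma adjusted p = 7.41e-06), next to -0.70 in PV-NES and -0.67 in WT, and it was under 2-fold without PV-NLS replicate 1 (-0.97) or replicate 3 (-0.95). EXLA3, the chromosomal neighbour of EXLA1 and likewise picked afterwards, was called nowhere, at -0.42, -0.51 and -0.62 after MeJA in PV-NES, PV-NLS and WT. All 3 EXLA genes were lower in each of the 6 lines after MeJA than in the same line's control. Among the other expansins the same held for EXLB1, EXPA4, EXPA8, EXPA15, EXPB1 and EXPB3. The smallest line difference was slight for EXLB1 (-0.000622) and EXPA4 (-0.0691). The share of all genes lower in all 6 lines was not counted.

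EXPA8 was lower after MeJA too, by less than after ABA. MeJA-treated PV-NES gave 7.28, 6.33 and 7.15, PV-NLS 7.02, 6.79 and 6.13, and WT 6.50, all under the lowest control array of 7.42. The changes were -1.20 ± 0.30, -1.27 ± 0.30 and -1.52 ± 0.44 (limma adjusted p = 0.00423, 0.00204 and 0.0263). Leaving out single arrays or lines ended the call in PV-NES (-0.90, adjusted p = 0.0959 without PV-NES replicate 2), in PV-NLS (-0.92 without PV-NLS replicate 3) and in WT (adjusted p = 0.0809 without WT control replicate 1 and 0.0568 without replicate 2). The direction was the same in all 6 lines.

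A further 2 genes were called lower after MeJA in WT and in no other genotype, with values of the same sign in PV-NES and PV-NLS. EXLB1 was 6.80 in MeJA-treated WT, against 7.80 and 8.11 in the control, a change of -1.16 ± 0.24 (limma adjusted p = 0.00235), where PV-NES gave -0.54 and PV-NLS -0.38. It is the one gene of the 49 called in opposite directions by ABA and MeJA in the same genotype. EXPB3 was 6.65 in MeJA-treated WT, against 7.68 and 7.93, a change of -1.16 ± 0.28 (limma adjusted p = 0.00847), next to -0.96 in PV-NES and -0.72 in PV-NLS.

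PV-NLS had 4 increases after MeJA that were called in no other genotype: EXPA7, EXPA9, EXPA18 and XTH20, of which EXPA9 and EXPA18 were picked after their values were seen. EXPA7 was 5.73, 6.10 and 5.34 in MeJA-treated PV-NLS, against 4.43, 4.76 and 4.92 (1.02 ± 0.23). EXPA18 was 7.32, 7.24 and 6.44, against 5.55, 5.57 and 5.73 (1.38 ± 0.37), and XTH20 was 5.61, 4.76 and 5.22, against 3.93, 4.34 and 4.26 (1.02 ± 0.23). Their treated arrays all lay above their controls, and line 8 (replicate 3) was the lowest of the MeJA arrays for both root hair expansins. EXPA9 gave 1.03 ± 0.18. The limma adjusted p was 0.00158 for EXPA7, 0.00628 for EXPA18, 0.00169 for XTH20 and 0.000138 for EXPA9.

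These 4 calls were close to the limits. Without PV-NLS replicate 1, EXPA7 (0.88), EXPA9 (0.79), EXPA18 (adjusted p = 0.0624) and XTH20 (0.69, adjusted p = 0.0826) all lost them, and without PV-NLS replicate 2 so did EXPA7 (0.86) and EXPA18 (adjusted p = 0.0874). The values in PV-NES were 0.03 for EXPA7, 0.85 for EXPA9, 0.56 for EXPA18 and 0.60 for XTH20, and those in WT 0.34, 0.41, 0.53 and 0.57. In PV-NES, line 7 (replicate 2) was the lowest MeJA array for EXPA7 (4.48), EXPA9 (6.43), EXPA18 (4.91) and XTH20 (4.05).

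The genes that ABA and MeJA left at different levels were found by setting the ABA arrays directly against the MeJA arrays, without the controls. In PV-NES, 6 wall genes were called higher after ABA than after MeJA and 2 lower, beside 5.1% of all genes (2.63% and 2.48%). PV-NLS had 4 higher and 5 lower, beside 8.25% (4.32% and 3.93%), and WT 3 higher and 4 lower, beside 6.08% (2.77% and 3.31%). The number lower in PV-NLS was 3 without PV-NLS replicate 1 and 10 without replicate 3, when XTH18, XTH26, EXPA8, EXPA18 and TBL38 were called too. EXLB1, EXLA1 and XTH19 were higher after ABA, and TBL26 and XTH20 lower, in every genotype.

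EXLB1 differed by 2.73 ± 0.16 in PV-NES, 2.63 ± 0.16 in PV-NLS and 3.29 ± 0.28 in WT (ABA minus MeJA, limma adjusted p = 5.40e-12, 8.74e-12 and 1.51e-08). For EXLA1 the differences were 2.18 ± 0.30, 1.88 ± 0.30 and 1.90 ± 0.51 (adjusted p = 6.38e-06, 2.27e-05 and 0.0169). XTH19 read 7.58, 8.02 and 7.87 in ABA-treated PV-NES, against 6.45, 5.88 and 5.68 after MeJA. In PV-NLS it was 7.76, 7.63 and 7.24, against 6.40, 6.31 and 6.19, and in WT 7.93, against 5.85. ABA and MeJA arrays of XTH19 were well apart in every genotype, by 1.81 ± 0.27, 1.24 ± 0.27 and 2.08 ± 0.46 (limma adjusted p = 1.81e-05, 0.000628 and 0.00413). Against the controls it was not called after MeJA, at -0.94, -0.87 and -0.61.

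In the opposite direction, XTH20 differed by -1.87 ± 0.23, -1.98 ± 0.23 and -2.09 ± 0.40 in PV-NES, PV-NLS and WT (limma adjusted p = 1.65e-06, 4.7e-07 and 0.00114). The lowest MeJA array of XTH20 was 4.05 and the highest ABA array 3.24. TBL26 differed by -3.57, -2.34 and -2.90. TBL37 and EXPA4 were called lower after ABA than after MeJA in PV-NLS (-1.08 and -1.33) and WT (-1.25 and -1.18), and TBL36 in PV-NLS (-1.04). EXLA2 was called higher in PV-NES (1.51) and PV-NLS (1.28), and EXPA16 (1.53) and EXPA7 (1.19) in PV-NES. The PV-NLS calls of TBL36 (-0.81 without PV-NLS replicate 1) and TBL37 (-0.99 without replicate 1 and -0.98 without replicate 2) fell under 2-fold when single lines were left out.

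**Figure D4:**
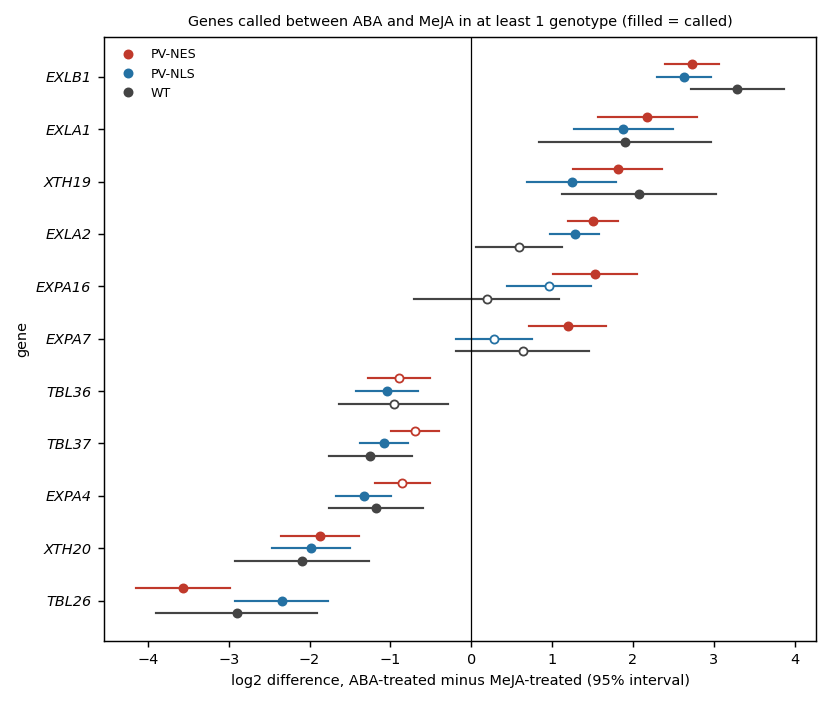
Log2 difference between ABA-treated and MeJA-treated seedlings (horizontal axis, ABA minus MeJA, with 95% intervals) of the 11 wall genes called in at least 1 genotype, for PV-NES (red), PV-NLS (blue) and WT (dark grey), with filled points for calls. EXLB1, EXLA1 and XTH19 lie to the right of 0 and XTH20 and TBL26 to the left in all 3 genotypes.

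ACC, the ethylene precursor, called few of these genes. In PV-NES, 1 was called higher and 1 lower, beside 0.682% of all genes (0.319% and 0.363%). In PV-NLS limma called 0, beside 1.12% of all genes (0.483% and 0.633%), although 18 of the 49 had an unadjusted p under 0.05, as did 28% of all genes, and 0 of those 18 reached 2-fold. In WT, 2 were higher and 1 lower, beside 5.41% of all genes (2% and 3.41%). Counts this small moved with single arrays. In PV-NES, 0 were higher without PV-NES replicate 2 or 3, and 2 lower without replicate 2 (EXPA15 joining EXLA1) against 0 without replicate 3. In PV-NLS, 1 was lower without PV-NLS replicate 1 (EXPA4, -1.04) or replicate 2 (EXLA1, -1.22). In WT, 1 was higher without PV-NLS replicate 1 or WT control replicate 1, and 4 were lower without WT control replicate 1 (EXLB1, EXPA15 and TBL38 joining EXPB3) against 2 without replicate 2 (TBL37 joining it). The summed green tissue signal of the WT ACC array was 13.1, against 13.7 to 13.8 on the WT controls, and its part in the WT ACC results was not tested. PV-NES and PV-NLS were at 13.6 to 13.8 after ACC.

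XTH26 (AT4G28850) read 3.83, 4.80 and 4.48 in ACC-treated PV-NES, against 2.78, 2.92 and 2.76 in the control. PV-NLS gave 4.04, 4.08 and 3.47, against 3.17, 2.90 and 3.26, and WT 4.68, against 2.70 and 3.13. All 7 ACC arrays were above all controls, though below the array medians. Some arrays of other hormones were as high, among them 4.34 in ABA-treated PV-NES (line 11) and 4.32 in MeJA-treated PV-NLS (line 5). The pooled SD of XTH26 was 0.497. Its change after ACC was called in PV-NES at 1.55 ± 0.36 and WT at 1.77 ± 0.53 (limma adjusted p = 0.0158 and 0.0294), and was 0.75 in PV-NLS, not called. In PV-NES the call was lost without PV-NES replicate 2 (adjusted p = 0.127) or replicate 3 (0.0999), and in WT without PV-NLS replicate 1 (0.0528) or WT control replicate 1 (0.155).

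XTH19 was 7.68, 7.89 and 7.93 in ACC-treated PV-NES, against 7.0, 6.86 and 6.97, and 7.97, 8.30 and 7.91 in ACC-treated PV-NLS, against 7.16, 6.93 and 7.41. It was 8.56 in WT after ACC, against 5.62 and 7.31. ACC arrays were above controls in every genotype, by 0.89 in both PV genotypes, not called, and by 2.1 ± 0.40 in WT (limma adjusted p = 0.00132), where 1 control was low as described above. Without that control, WT replicate 1, the WT change was 1.26 and still called.

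EXLA1 was 6.03, 6.68 and 6.52 in ACC-treated PV-NES, against 8.02, 7.18 and 7.71. It was 6.68, 6.81 and 6.70 in ACC-treated PV-NLS, against 7.93, 7.34 and 7.89. Both PV genotypes were apart from their controls, by -1.22 ± 0.30 in PV-NES (limma adjusted p = 0.0225) and -0.99 in PV-NLS, not called, while the WT ACC array of 7.16 lay between its controls. The PV-NES call was lost without PV-NES replicate 1 (-0.84, adjusted p = 0.323) or replicate 3 (adjusted p = 0.209). EXPB3 was lower in WT, at 6.58 after ACC against 7.68 and 7.93 (-1.22 ± 0.28, limma adjusted p = 0.00565), next to -0.66 in PV-NES and -0.72 in PV-NLS. EXPA4 and EXPA15 were lower with an adjusted p under 0.05 in all 3 genotypes but short of the fold limit, at -0.79, -0.86 and -0.73 for EXPA4 and -1.0, -0.67 and -0.80 for EXPA15. EXPA8, lowered by ABA and MeJA, was 8.69, 8.88 and 9.22 in ACC-treated PV-NES, against 7.78, 8.15 and 8.45, which did not pass the test (0.80, limma adjusted p = 0.145). Its ACC arrays also lay above the controls in PV-NLS and WT, not called, and each of the 6 lines was higher, by 0.055 to 1.36.

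Whether buffered Ca2+ changed the wall genes was asked in 2 ways. Levels were first compared between genotypes under the same treatment. With no hormone, 0 of the 49 were called in any of the 3 pairs of genotypes, where at most 1 gene of all was called (0.00443%), and at an unadjusted p under 0.05 there were 3 wall genes for PV-NES minus WT, 1 for PV-NLS minus WT and 2 for PV-NES minus PV-NLS, beside 10.5%, 6.37% and 8.17% of all genes. The 95% intervals lay within 1 log2 unit of 0 for 46, 45 and 46 of the 49. Without WT control replicate 2, XTH19 was called higher in both PV-NES (1.33, limma adjusted p = 0.0243) and PV-NLS (1.55, adjusted p = 0.009) than on the remaining, low WT control. Under ABA limma called 0 wall genes as well, where it called 0.164% (0.128% higher and 0.0354% lower), 0% and 0% of all genes in the same order of pairs, and 5, 1 and 6 had an unadjusted p under 0.05, beside 8.54%, 1.51% and 9.19% of all genes. Under MeJA it also called 0, beside 0.0443%, 0.0398% and 0.093% of all genes, and 3, 6 and 11 had an unadjusted p under 0.05, beside 10.3%, 12.7% and 20.8% of all genes. EXPA18 was called lower in MeJA-treated PV-NES than in MeJA-treated PV-NLS without PV-NES replicate 1 (-1.58, limma adjusted p = 0.0182) or PV-NLS replicate 3 (-1.36, adjusted p = 0.037).

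Under ACC 1 wall gene was called, in PV-NES minus WT, where 1.8% of all genes were called higher and 0.642% lower. In PV-NLS minus WT and PV-NES minus PV-NLS limma called 0, beside 1.47% and 0% of all genes, with 7 wall genes each at an unadjusted p under 0.05, beside 18.8% and 7.21% of all genes. EXPB3 was 7.37, 7.78 and 7.69 in ACC-treated PV-NES, against 6.58 on the single WT ACC array. The difference was 1.03 ± 0.27 (limma adjusted p = 0.0218), and it was not called without PV-NES replicate 2 (0.94, adjusted p = 0.0686) or replicate 3 (0.99, adjusted p = 0.0814). Without either WT control array, EXPA16 (1.07) was called as well, making 2, and without PV-NES replicate 2 it was called (1.3) in place of EXPB3. In the same pair TBL25, another mannan O-acetyltransferase, was 8.70, 8.68 and 8.93 in PV-NES, against 7.90 in WT (0.87, adjusted p = 0.00302), and TBL30, a xylan acetyltransferase, differed by -0.63 (adjusted p = 0.0379), both under 2-fold. Under MeJA, TBL45 was 7.35, 7.50 and 7.56 in PV-NES, against 6.95, 7.01 and 7.25 in PV-NLS (0.40, limma adjusted p = 0.0431), and TBL39 differed by -0.53 (adjusted p = 0.0363). The last 4 genes fell short of a call and were picked after their values were seen. By a limma adjusted p under 0.05 alone, PV-NES minus WT under ACC had 3 wall genes, EXPB3 included, beside 6.76% of all genes. PV-NES minus PV-NLS under MeJA had 2, beside 4.22% of all genes.

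Second, the responses themselves were compared between genotypes by interaction contrasts. Of 441 such tests of wall genes, limma called 0, and 40 had an unadjusted p under 0.05, beside 9.51% of such tests over all genes, and the share of all genes called was 0% to 1.4% per comparison. The smallest adjusted p was 0.0663, for TBL25 after ACC in PV-NES minus WT (0.78, 95% interval 0.34 to 1.21). Calls appeared when WT control replicate 2 was left out, which rests the WT responses on the other control array. After ACC, EXPA16 (1.67) and TBL25 (1.0) were then called higher and XTH19 lower (-2.06) in PV-NES minus WT, and XTH19 (-2.06) and XTH18 (-1.87) lower in PV-NLS minus WT. After ABA the difference in response ranged from -0.59 (XTH19) to 1.22 (EXPA18) for PV-NES minus WT and from -1.09 (XTH19) to 0.79 (EXPA8) for PV-NLS minus WT. After MeJA it ranged from -0.61 (EXPA16) to 0.62 (EXLB1) and from -0.63 (XTH16) to 1.00 (XTH26).

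These intervals were wide where the WT hormone array is single. For ABA, 30 of 49 intervals of PV-NES minus WT lay within 1 log2 unit of 0, but only 5 of those of the 15 genes called after ABA. EXLB1, which had the smallest adjusted p of the 49 after ABA in every genotype, had a difference of 0.05 (-0.55 to 0.65) in PV-NES minus WT and 0.12 (-0.48 to 0.72) in PV-NLS minus WT. EXPA8 had 1.03 (-0.07 to 2.13) and 0.79 (-0.31 to 1.90), and TBL38 0.88 (0.23 to 1.53, adjusted p = 0.278) and 0.14 (-0.51 to 0.79). After MeJA, TBL26 had 0.57 (-0.47 to 1.61) in PV-NES minus WT and -0.43 (-1.47 to 0.61) in PV-NLS minus WT, and it differed by 1.00 between PV-NES and PV-NLS (0.19 to 1.82, adjusted p = 0.861). The MeJA response of EXPA7 differed by -0.99 in PV-NES minus PV-NLS (95% interval -1.67 to -0.32, adjusted p = 0.861). Calls that were made in 1 genotype are therefore not shown to be confined to it.

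**Figure D5:**
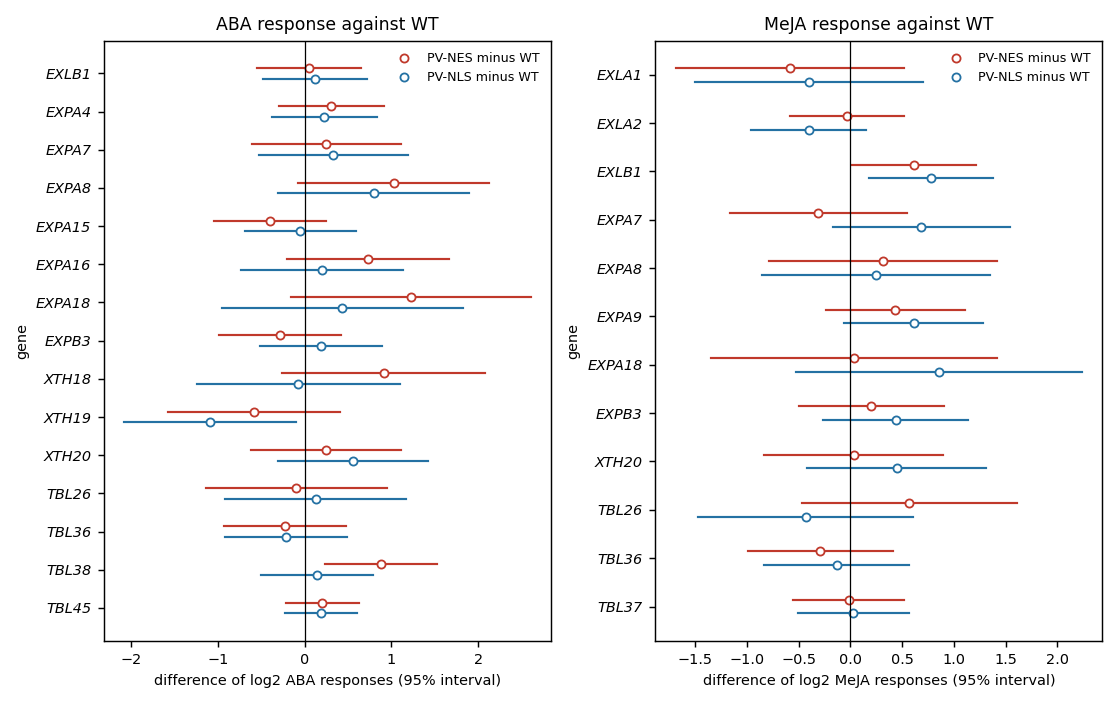
Difference of log2 responses from WT (horizontal axis, with 95% intervals) for the 15 wall genes called after ABA (left) and the 12 called after MeJA (right), for PV-NES minus WT (red) and PV-NLS minus WT (blue). All points are open, as 0 were called, and the intervals of EXPA18 are the widest.

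Called in at least 1 of the 9 hormone comparisons were 20 of the 49 genes, beside 15.2% of all genes. The other 29 were called in 0, and each of these stayed under 2-fold in all 9, although 15 of them had an adjusted p under 0.05 in at least 1 comparison. Counted by that adjusted p alone, 35 of the 49 passed somewhere, beside 60.2% of all genes. Within the TBL family, taken by known substrate and picked after their values were seen, the xylan acetyltransferases TBL28, TBL30, TBL32, TBL34 and TBL35 were never called, with largest absolute log2 changes of 0.37, 0.43, 0.60, 0.68 and 0.48. The same held for the xyloglucan acetyltransferases TBL19, TBL20 and TBL21 (0.30, 0.31 and 0.71) and for TBL23 and TBL25, relatives of TBL26 that also acetylate mannan (0.29 and 0.62). TBL28, TBL30, TBL32, TBL34, TBL19, TBL20 and TBL21 were below the array median on all 29 arrays. The least changed of each family were EXPA24 (0.31) and EXPB5 (0.37), XTH29 (0.44) and XTH32 (0.53), and TBL23 (0.29) and TBL43 (0.29), with pooled SDs of 0.117, 0.0906, 0.167, 0.243, 0.0905 and 0.131. Of these, XTH32 and TBL23 were above the array median on every array, and EXPA24, EXPB5, XTH29 and TBL43 below it on every array.

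Other wall genes that the array names were few, and the list was drawn up by symbol with earlier results of these data known. It held 7 cellulose synthase-like genes, 3 of xyloglucan and xylan synthesis (GUT1, GUT2 and IRX15), 2 of pectin (GAUT15 and PME61) and the β-galactosidase BGAL16. PRP39 also met the symbol rule but is named for pre-mRNA processing. Of the cellulose synthase-like genes, 1 was called higher after MeJA in each genotype and 1 lower in PV-NES. Of all genes, 2.42%, 2.92% and 2.89% were called higher in PV-NES, PV-NLS and WT, and 2.42% lower in PV-NES.

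CSLA01, of the family of glucomannan synthases that make the polymer TBL26 acetylates, was 9.04, 9.23 and 8.62 in MeJA-treated PV-NES, against 3.39, 3.67 and 3.43 in the control. PV-NLS gave 9.27, 8.94 and 9.03, against 3.79, 3.50 and 3.39, and WT 8.85, against 3.97 and 3.60. MeJA arrays were far above and controls far below the array medians, with changes of 5.47, 5.52 and 5.06 (limma adjusted p = 1.92e-16, 1.53e-16 and 7.92e-12), uncertain in size because the controls are dim. CSLA03, its relative, was called lower in PV-NES after MeJA (-1.02) and ABA (-1.0). It was not called in PV-NLS (-0.75 and -0.81) or WT (-0.19 and -0.68). CSLC12, of the family that makes the xyloglucan backbone, was called higher after ABA in PV-NLS (1.09), next to 0.92 in PV-NES and 0.77 in WT. PME61, a pectin methylesterase, was called lower after ABA in PV-NLS (-1.26) and WT (-1.60), next to -0.78 in PV-NES. After ACC limma called 0 of these genes, beside 0.682%, 1.12% and 5.41% of all genes in PV-NES, PV-NLS and WT. By an adjusted p under 0.05 alone, 0, 4 and 3 of the 14 matched genes passed, PRP39 counted among the 14, all under 2-fold. Of all genes, 1.75%, 6.28% and 6.1% were higher and 1.58%, 6.51% and 7.95% lower at that limit.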

How the data were processed

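RNA of 29 seedling samples in 12 groups was hybridised to Affymetrix ATH1 arrays, 1 array per sample. Signals on the log2 scale came as deposited from RMA, which the authors ran in R (background correction, quantile normalisation and summary per probe set) and whose version is not given in the sources used here. They ran from 1.35 to 13.26. Among the 22810 probe sets were 64 controls of the array, which were dropped. By the platform annotation 13513 of the rest had 1 gene, 503 several and 8730 none. For the 146 genes with more than 1 probe set the brightest was used, which left 22589 features, called genes in the text.

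One linear model with 12 group means was fitted to these values (limma 3.58.1, R 4.3.3, 17 residual and 5.94 prior degrees of freedom), with moderated two-sided tests and Benjamini-Hochberg adjustment per comparison over all 22589 features. All groups share the variance of a gene, since each WT hormone group has 1 array. A gene was called past a 2-fold change with an adjusted p under 0.05, the limits of the study's methods, and ± gives the standard error of limma. The number of arrays limits the precision. The labels name the transgenic line of each PV-NES and PV-NLS sample, so that replicates 1, 2 and 3 are lines 1, 7 and 11 in PV-NES and lines 4, 5 and 8 in PV-NLS, each measured once under every treatment. Residuals of 1 line under different treatments correlated at a median of 0.00789 in PV-NES (-0.242 to 0.216, 18 pairs) and 0.109 in PV-NLS (-0.132 to 0.309, 18 pairs). Between different lines the medians were -0.0238 in PV-NES (-0.298 to 0.286, 36 pairs) and -0.059 in PV-NLS (-0.287 to 0.171, 36 pairs).

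Members and gene lists were chosen with earlier results of these data known. Named were members called in at least 2 genotypes after the same hormone (up to 8 per family for ABA and for MeJA by mean absolute log2 change), those called after ACC, between genotypes, by an interaction, or in opposite directions by ABA and MeJA in the same genotype, and the 2 least changed of each family. Any other gene named was picked after its values were seen. Alternatives were a line block, median centring, a further quantile normalisation, a filter on dim genes, every probe set, only the compared groups, another prior, the methods' t-test, no fold limit, and leaving out each line or WT control array. No sequences are shown and promoter motifs were not analysed here.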

Additional observations from a re-analysis of the deposited data

How the results depend on the processing

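No call reversed its direction under any alternative run. A fit with the transgenic line as a replicate block kept each of the 42 counts of wall genes tested that way and each of the 81 single calls, so pairing samples by line altered none of them. Each array centred on its median gave 2 genes lower after ACC in PV-NES and 1 in PV-NLS, ended 1 of 82 single calls (EXLA2 after MeJA in PV-NLS, -0.99), and moved the median of all genes by over 0.1 only in the MeJA response of PV-NLS minus WT (0.112). A second quantile normalisation ended 2 of 57 single calls, EXPA16 (0.98) and EXPB3 (-0.96) after ABA in PV-NLS. Testing every probe set ended 0 of 57. With dim genes left out, 0 were higher after ACC in PV-NES and 1 in WT, because the filter removes XTH26 itself. All 50 single calls that could still be tested were kept. An intensity trend with a robust prior gave 1 higher after ACC in WT and ended 2 of 57 single calls.

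With only the compared groups in the fit, the WT counts dropped to 0 higher and 1 lower after ABA, 1 higher and 0 lower after MeJA, and 0 in either direction after ACC. The same setting gave 2 higher after ACC in PV-NES and 1 lower in PV-NES minus WT under ACC, and ended 18 of 58 single calls. The methods' t-test takes its spread for WT from the 2 control arrays alone. Unadjusted, it gave 0 higher and 4 lower after ABA in WT, 0 higher and 2 lower after MeJA in WT, 0 in either direction after ACC in WT and 2 higher after ACC in PV-NES, and it kept 43 of 57 single calls. After Benjamini-Hochberg it kept 19 of 57, with 1 higher after ABA in PV-NES and 2 in PV-NLS, 1 lower after MeJA in PV-NES, 2 higher and 1 lower after MeJA in PV-NLS, and 0 for WT under every hormone and for PV-NES after ACC. With no limit on the fold there were 9 higher after ABA in PV-NES (beside 6.37% of all genes), and 8 higher and 12 lower in PV-NLS (12.4% and 12.6%). After MeJA there were 4 higher and 14 lower in PV-NES (11.3% and 12.5%), 10 lower in PV-NLS (16.4%) and 8 lower in WT (5.57%). After ACC there were 3 lower in PV-NES (1.58%), 3 higher and 6 lower in PV-NLS (6.28% and 6.51%) and 8 lower in WT (7.95%).

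Leaving out 1 line or 1 WT control array at a time gave these lowest and highest counts. After ABA they were 3 to 5 higher and 6 to 7 lower in PV-NES, 3 to 4 and 6 to 7 in PV-NLS, and 2 to 4 and 6 to 11 in WT. After MeJA they were 2 to 2 higher and 3 to 5 lower in PV-NES, 2 to 6 and 2 to 4 in PV-NLS, and 2 to 2 and 4 to 5 in WT. After ACC they were 0 to 1 higher and 0 to 2 lower in PV-NES, 0 to 0 and 0 to 1 in PV-NLS, and 1 to 3 and 1 to 4 in WT. Between ABA and MeJA they were 6 to 7 higher and 2 to 3 lower in PV-NES, 4 to 5 and 3 to 10 in PV-NLS, and 3 to 3 and 4 to 4 in WT. Between genotypes they were 0 to 1 higher in PV-NES minus WT and in PV-NLS minus WT without hormone, 0 to 2 higher in PV-NES minus WT under ACC, and 0 to 1 lower in PV-NES minus PV-NLS under MeJA. Differences in the ACC response gave 0 to 2 higher and 0 to 1 lower for PV-NES minus WT and 0 to 2 lower for PV-NLS minus WT. All other comparisons of genotypes and of responses stayed at 0.

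WT rests on 1 array per hormone, and folds of the 19 wall genes below the array median on every array are uncertain in size.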
